A study of Rattus norvegicus with 24 samples.

Results

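Left ventricle and superior cervical ganglion of the Wistar-Kyoto rat (WKY) were compared by RNA sequencing. WKY is an inbred strain with normal blood pressure that is kept as the control of the spontaneously hypertensive rat (SHR). Both tissues came from WKY rats aged 24 weeks, with 4 libraries for each tissue, and the labels name no treatment and no transgene. These are 8 of the 24 libraries of the series, which also holds both tissues of SHR rats of the same age and the adrenal glands of both strains. RNA came from whole tissue, with no sorting step named. The labels do not say whether each library came from its own rat, and the p-values therefore reflect only how much the libraries of a tissue vary, which can be technical variation. The level of a gene is its FPKM, a fragment number corrected for the length of the transcript and the total of the library. A gene entered the comparison when 4 or more of the 8 libraries had an FPKM of 1 or above. This held for 13636 of the 20506 genes with values. Among the listed genes, Trpv1 lay just inside this limit, with 1.13, 1.22, 1.43 and 1.28 in ganglion libraries 1 to 4, and Lck just outside it, with 1.17, 0.77, 1.36 and 1.16 in the ventricle libraries.

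The wall of the left ventricle is built mainly of cardiomyocytes, striated muscle cells that contract without pause and draw most of their energy from the oxidation of fatty acids. The superior cervical ganglion holds the cell bodies of sympathetic neurons, which receive cholinergic input from the spinal cord, make noradrenaline and send axons to targets in the head, neck and chest. Each neuron is wrapped by satellite glia, and its axon by Schwann cells. The comparison therefore sets an organ that noradrenaline acts on against one that makes it.

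Levels are given as FPKM, which are corrected for transcript length, in the order of libraries 1 to 4 or as mean ± SD over n = 4 libraries. Differences are left ventricle minus ganglion on the log2(FPKM + 1) scale with the standard error (SE) of limma, so a negative one means higher in the ganglion. This scale understates the change of weakly expressed genes. A gene is described as higher in a tissue when its Benjamini-Hochberg adjusted p from limma was under 0.05 and the difference was at least 1, which is at least 2-fold on this scale. By this rule 2705 genes (19.8% of those tested) were higher in the left ventricle and 3349 (24.6%) in the ganglion. These shares are the background for each count of list members below. A further 5790 genes passed the adjusted p with a smaller difference, so that 86.9% of all genes tested passed it in either direction, and the values of 82.9% did not overlap between the tissues. Against such a background a call alone says little, and the size of a difference says more: 126 genes were higher in the ventricle and 246 in the ganglion by at least 5 log2 units. Of the genes tested, 694 never reached an FPKM of 1 in a ganglion library and 1209 never in a ventricle library. They passed the filter through the other tissue alone and had to differ.

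The 8 libraries fell into the labelled tissues. Correlations of the log2 values were 0.989 to 0.995 within a tissue and 0.511 to 0.546 between them, and the first principal component held 97.4% of the variance. Left ventricle library 4 stood apart from the other ventricle libraries on the second component, at 21.9 against -9.05 to -4.01, but this component held only 0.66% of the variance. The FPKM summed to 542152 to 546826 in the ventricle and 458567 to 464427 in the ganglion. The 10 highest genes took 11.8% to 12.2% of that sum in the ventricle and 5.08% to 5.22% in the ganglion. The median difference of all genes was -0.08, and it moved to -0.32 when every library was scaled to the same sum. The number of reads is not given, and the precision of each value rests on 4 libraries.

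**Figure D1:**
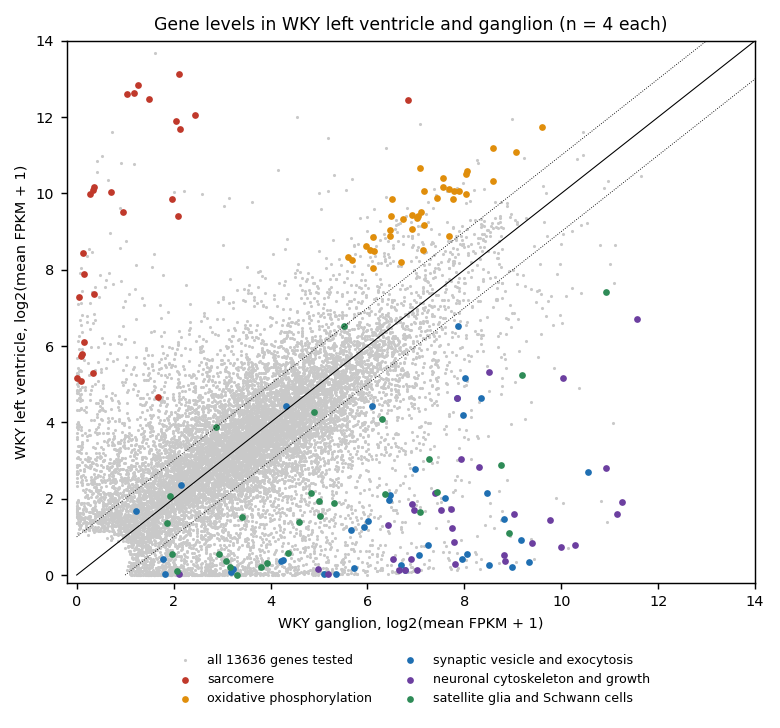
Mean level of each of the 13636 genes tested in the WKY ganglion (x axis) and WKY left ventricle (y axis), both as log2(mean FPKM + 1), n = 4 libraries each; the solid line marks equal levels and the dotted lines a difference of 1. Sarcomere genes lie at the upper left, oxidative phosphorylation genes above the upper dotted line at high levels in both tissues, and most synaptic, cytoskeletal and glial genes below the lower line.

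Genes of the sarcomere, the contractile unit of striated muscle, showed the largest ventricular excess. All 27 tested members of 28 listed were higher in the left ventricle (background 19.8%), with a median difference of 8.26; 14 of them never reached an FPKM of 1 in a ganglion library, and Myot, a Z-disc protein, did not pass the filter. Together the list took 10.4% to 11.4% of the FPKM sum of a ventricle library and 0.0298% to 0.0331% of a ganglion library. Actc1, the cardiac form of actin, stood at 6766, 7586, 6992 and 8056 FPKM in the ventricle and at 1.36, 1.04, 1.62 and 1.53 in the ganglion. No value of either tissue came near the other, and the difference was 11.59 ± 0.08 (SE; adjusted p = 3.06e-14). Myh6, the heavy chain of the fast cardiac myosin, was at 2862, 3705, 3207 and 3318 FPKM in the ventricle against 3.26, 3.17, 3.56 and 3.5 in the ganglion, a difference of 9.54 ± 0.07. The regulatory light chain Myl2 differed by 11.45 ± 0.10 and the essential light chain Myl3 by 11.59 ± 0.11. Cardiac troponin I, Tnni3, had 5689 ± 271 FPKM against 1.79 ± 0.399. Troponin T, Tnnt2, which ties troponin to tropomyosin, was the second highest gene of the ventricle after myoglobin, at 8965 ± 338 FPKM. Cardiac myosin-binding protein C, Mybpc3, had 1092 ± 51 FPKM against 0.258 ± 0.0624. The giant spring protein titin, Ttn, reached only 33.8, 36.1, 40.1 and 28.7 FPKM per unit length in the ventricle and was at 0.01 in every ganglion library. The M-band protein Myom2 was among the steadiest of the list, with 1043 ± 22.8 against 0.642 ± 0.0403 FPKM.

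Serum response factor binds the CArG box and is known to drive sarcomere genes, so the promoters of the list were searched for it. Windows of 250 bases before the annotated start, from RefSeq on build GRCr8, were at hand for 20 of the 27 tested members, and 3 of them (15%) held the motif on either strand. The share was 1.59% among all genes higher in the ventricle, 0.815% among those higher in the ganglion and 1.18% among all tested genes with a window. Shown as examples are the sarcomere members Myl3 and the Z-disc gene Ldb3, and Acta1, the skeletal actin, whose ventricular level was 1051 ± 351 FPKM against 3.04 ± 0.527 in the ganglion. Capitals mark the CArG box. The windows lie at chr8:119616957-119617046 on the plus strand, chr16:9924682-9924771 on the minus strand and chr19:68784239-68784328 on the minus strand, and the box begins 97, 52 and 94 bases before the start. A match describes the letters of the window and says nothing about binding.
Myl3: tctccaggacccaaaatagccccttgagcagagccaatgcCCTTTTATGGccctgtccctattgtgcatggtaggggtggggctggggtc
Ldb3: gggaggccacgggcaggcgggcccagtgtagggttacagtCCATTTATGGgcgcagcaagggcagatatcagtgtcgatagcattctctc
Acta1: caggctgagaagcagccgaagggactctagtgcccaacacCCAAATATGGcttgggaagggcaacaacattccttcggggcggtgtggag

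The machinery that releases and recovers calcium at each beat was also a ventricular feature, but 3 members ran against it. Of 17 tested members, 11 (64.7%) were higher in the ventricle and 3 (17.6%) in the ganglion, with a median of 3.43. The shares over all genes tested were 19.8% and 24.6%, so the share higher in the ganglion was below the background. Of the 17, 5 passed the filter through the ventricle alone. Ryr2, the calcium release channel of the sarcoplasmic reticulum, read 75.2, 89.2, 87.7 and 89.4 FPKM in the ventricle and 3.84, 3.95, 4.6 and 3.66 in the ganglion. Ventricle library 1 lay below the other 3, and the tissues did not overlap, with a difference of 4.11 ± 0.08. The calcium pump Atp2a2 had 2322 ± 252 FPKM against 82.1 ± 3.79, and its inhibitor Pln 1758 ± 63.3 against 1.26 ± 0.411. The pump was thus well detected in the ganglion while its inhibitor was near an FPKM of 1. Casq2, which buffers calcium in the store, differed by 8.30 ± 0.12, Hrc, another calcium-binding protein of the store, by 8.15 ± 0.06 and Srl (sarcalumenin) by 7.33 ± 0.08. The members higher in the ganglion were Fkbp1b, Bin1 and Cacna2d1. Fkbp1b, which binds ryanodine receptors and steadies their closed state, had 0.27, 0.32, 0.52 and 0.29 FPKM in the ventricle and 319, 314, 334 and 323 in the ganglion, a difference of -7.91 ± 0.06. Bin1, known for shaping T-tubules in muscle and for membrane bending in neurons, was at 8.57 ± 1.32 against 61.4 ± 2.59 FPKM, and the calcium channel subunit Cacna2d1 at 10.04 ± 1.01 against 45.2 ± 4.72.

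Channels and junction proteins that carry the impulse from cell to cell followed the muscle. Of 27 tested members, 22 were higher in the ventricle and 1 in the ganglion, and 12 never reached an FPKM of 1 in a ganglion library. Connexin 43, Gja1, the main gap junction protein of the ventricle, had 193 ± 13.6 FPKM against 3.81 ± 1.54. The inward rectifier Kcnj2, which sets the resting potential, differed by 2.65 ± 0.10. Kcnip2, the partner of the transient outward channel, was higher by 7.70 ± 0.12, the desmosomal proteins Dsp and Pkp2 by 7.09 ± 0.07 and 4.86 ± 0.06, and Popdc2, a cyclic AMP-binding membrane protein, by 6.18 ± 0.08. Hcn4, the pacemaker channel that is abundant in the sinus node, was the exception, with 1.28, 1.5, 1.1 and 0.43 FPKM in the ventricle and 6.39, 4.84, 4.56 and 5.36 in the ganglion. Every ganglion library exceeded every ventricle library, by a difference of -1.62 ± 0.17 (adjusted p = 6.39e-06).

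Of the transcription factors that build and maintain heart muscle, 22 of 28 were higher in the ventricle and 3 in the ganglion, and 10 passed the filter through the ventricle alone. Gata4 was at 31.6, 27.1, 31.6 and 34.5 FPKM in the ventricle, and in the ganglion it was listed at 0 except for 0.03 in library 2. Nkx2-5 had 36.6 ± 2.78 FPKM in the ventricle and was listed at 0 in 3 ganglion libraries. Tbx5, with 5.89, 7.94, 7.62 and 7.79 in the ventricle, was listed at 0 in all ganglion libraries. Ankrd1, a stretch-responsive cofactor, reached 3117 ± 157 FPKM against 0.662 ± 0.121 and had the largest difference of the list, 10.87 ± 0.06. Tbx20 did not separate the tissues. It had 18.2, 15.5, 21.7 and 28.2 FPKM in the ventricle and 24, 27.4, 28.4 and 19.1 in the ganglion, ranges that overlap (difference -0.25 ± 0.18; adjusted p = 0.225). The factors higher in the ganglion were Hand1, Hand2 and Meis1. Hand1, which patterns the left ventricle in the mouse embryo, was listed at 0 in 3 ventricle libraries and at 0.14 in library 1, while the ganglion held 93.2, 98.7, 103 and 96.6 FPKM. Its paralogue Hand2, needed for both the heart and the noradrenergic phenotype of sympathetic neurons, was well detected on both sides, with 37.6, 29.4, 32.5 and 32.02 FPKM in the ventricle and 165, 163, 179.9 and 176 in the ganglion (difference -2.35 ± 0.07).

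Among the hormones and other secreted factors of the heart, 9 of 12 tested members were higher in the ventricle and 2 in the ganglion, and 6 passed the filter through the ventricle alone. The atrial natriuretic peptide gene Nppa had 580.0, 2019, 2009 and 626 FPKM in the ventricle and 0.49, 0.49, 0.84 and 0.42 in the ganglion. Ventricle libraries 2 and 3 were more than 3 times as high as libraries 1 and 4, yet all were far above the ganglion (difference 9.47 ± 0.46). Brain natriuretic peptide, Nppb, was steadier, at 346, 391, 321 and 320.5 against 0, 0.18, 0.08 and 0.19. Corin, the protease that activates the atrial peptide, differed by 5.12 ± 0.13, Fgf16, a growth factor of the heart, by 4.16 ± 0.07 and Vegfb by 2.15 ± 0.05. The 2 members higher in the ganglion were Fgf13, which binds sodium channels rather than receptors, with 39 ± 2.91 FPKM against 13.2 ± 0.559, and neuregulin 1, Nrg1, a ligand of Schwann cells and cardiomyocytes, with 9.86 ± 0.844 against 0.282 ± 0.333.

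Nearly the whole oxidative energy supply was higher in the ventricle. This held for 28 of 30 genes of fatty acid uptake and oxidation, 21 of 22 of the citric acid cycle and all 37 tested genes of oxidative phosphorylation. The medians were 3.41, 2.08 and 2.42. No member of the last pair of lists passed the filter through the ventricle alone, and 2 of the fatty acid list did. Cd36, the fatty acid transporter, had 903, 1027, 931 and 891 FPKM in the ventricle and 8.55, 4.69, 4.35 and 13.7 in the ganglion. The ganglion libraries 1 and 4 were higher than 2 and 3, and the difference was 6.86 ± 0.31. Lipoprotein lipase, Lpl, showed the same split, with 7.53, 2.66, 2 and 7.66 FPKM in the ganglion against 1021 ± 79.9 in the ventricle. Fabp3, the fatty acid carrier of heart muscle, had 4108 ± 160.1 FPKM against 22.4 ± 1.37, and Cpt1b, which admits fatty acids to the mitochondrion, 267 ± 25.5 against 1.94 ± 0.242. The dehydrogenases Acadl and Acadm differed by 4.88 ± 0.05 and 3.38 ± 0.06. The only member higher in the ganglion was the transporter Slc27a6, at 7.11 ± 1.24 FPKM against 0.0725 ± 0.0377.

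In the citric acid cycle, citrate synthase, Cs, was at 416 ± 59.3 FPKM in the ventricle and 161 ± 2.1 in the ganglion, a difference of 1.35 ± 0.09. Idh2, the mitochondrial isocitrate dehydrogenase that uses NADP, had by far the largest difference of the cycle, 6.47 ± 0.08. Idh3a, a subunit of the NAD-linked enzyme of the same step, was the member below 2-fold, with 129, 145, 133 and 153 against 101, 103, 103 and 103 FPKM, which do not overlap. The differences of the listed respiratory chain genes, which do not include the tissue-specific subunits described below with the isoform pairs, ran from 1.19 to 3.58. Ndufs1 of complex I, Uqcrc1 of complex III, Cox5a of complex IV and the ATP synthase subunit Atp5a1 differed by 2.35 ± 0.07, 2.35 ± 0.04, 2.28 ± 0.04 and 2.58 ± 0.05. Atp5a1 stood at 2319 ± 166 FPKM in the ventricle and still at 387 ± 9.62 in the ganglion.

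Glycolysis showed no common direction but a change of isoforms. Of 27 genes, 10 were higher in the ventricle and 10 in the ganglion, with a median of -0.39. Eno3, the muscle enolase, had 230.1, 270.4, 223 and 211 FPKM in the ventricle and 3.05, 2.32, 1.93 and 2.5 in the ganglion, and the neuronal enolase Eno2 2.83, 6.26, 5.43 and 0.77 and 152, 156, 174 and 150.0. Each tissue thus held mainly its own form, although Eno2 varied widely between ventricle libraries. The same held for phosphoglycerate mutase, with Pgam2 at 872 ± 82.5 against 11.3 ± 1.21 FPKM and Pgam1 at 129 ± 4.74 against 386 ± 16.6, and for the glucose transporters, with Slc2a4 higher by 6.33 ± 0.18 and Slc2a1 lower by 1.35 ± 0.13 in the ventricle. Ldhb was at 3622 ± 139.8 FPKM in the ventricle and 135 ± 4.72 in the ganglion, while Ldha was level at 649 ± 58.4 and 613 ± 24.5 (difference 0.08 ± 0.06, which became -0.50 under quantile normalization and -0.17 with equal sums). Aldolase shifted through its brain form Aldoc, at 2.21 ± 0.44 against 435 ± 9.26 FPKM, whereas Aldoa differed by 0.59 ± 0.04, or -0.050 under quantile normalization. Pyruvate kinase, Pkm, was higher in the ganglion by less than 2-fold, at 800.0 ± 10.99 FPKM against 611 ± 39.7. Gapdh, often used as a reference gene, had 3128 ± 38.2 FPKM in the ventricle and 1406 ± 89.9 in the ganglion. Genes with near-identical copies elsewhere in the genome, such as Gapdh, the actins, the tubulins, Eef1a1 and ribosomal proteins, are uncertain because reads may be shared with the copies.

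The exchange of isoforms went beyond glycolysis. Among 36 pairs of a striated muscle form and another form, 19 had both members at least 2-fold apart in opposite directions. The pairs rest on knowledge of muscle biology but were chosen with earlier results of these data known, so their counts are descriptions. The muscle form was higher in the ventricle in 30 pairs and the other form higher in the ganglion in 23, and in 25 pairs the higher member in every ventricle library was the lower member in every ganglion library. The ratio of the muscle to the other form was higher in all ventricle libraries than in any ganglion library in 34 pairs. The exceptions were Cox7a1 with Cox7a2 and Atp1b1 with Atp1b2. Creatine kinase is a clear example. Ckm was at 1732, 1807, 1605 and 2018 FPKM in the ventricle and 0.96, 0.76, 0.85 and 1 in the ganglion, and Ckb at 115, 148, 111 and 151 and 283, 286, 284 and 293. The muscle form led in each ventricle library and the brain form in each ganglion library. Scn9a, a sodium channel of peripheral neurons, had 53.9, 59.5, 57.1 and 47.2 FPKM in the ganglion and at most 0.04 in the ventricle. Calcium channels exchanged Cacna1c (difference 3.43 ± 0.08) for the presynaptic Cacna1b (-4.86 ± 0.06). Myoglobin, Mb, the oxygen store of muscle and the highest gene of the ventricle, had 13434, 13843, 12398 and 12484 FPKM against 2.02, 1.89, 2.98 and 1.43 in the ganglion, and its relative Cygb was higher in the ganglion by less than 2-fold (-0.73 ± 0.09). Rpl3l, a ribosomal protein of striated muscle, was at 231 ± 5.74 FPKM against 0.0925 ± 0.055, and the general form Rpl3 at 181 ± 14.7 against 409 ± 20.3.

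Cytochrome oxidase subunits showed the exchange in part. Cox6a2 and Cox8b, the heart forms, differed by 10.46 ± 0.14 and 10.16 ± 0.21, with Cox8b listed at 0 in ganglion libraries 2 and 4. Their general forms Cox6a1 and Cox8a were higher in the ganglion by less than 2-fold. In the third pair the general form Cox7a2 exceeded the heart form Cox7a1 even in the ventricle, at 1132 ± 69.2 against 18.3 ± 1.81 FPKM. Atp1b1, a subunit of the sodium pump paired here as the muscle form, was at 1172, 1228, 1160.0 and 1186 FPKM in the ganglion and 176, 191, 186 and 176 in the ventricle (difference -2.70 ± 0.04). Ryr3, Atp2a3, Fhl1 and Cox7a2 were members of the other form that were higher in the ventricle.

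**Figure D2:**
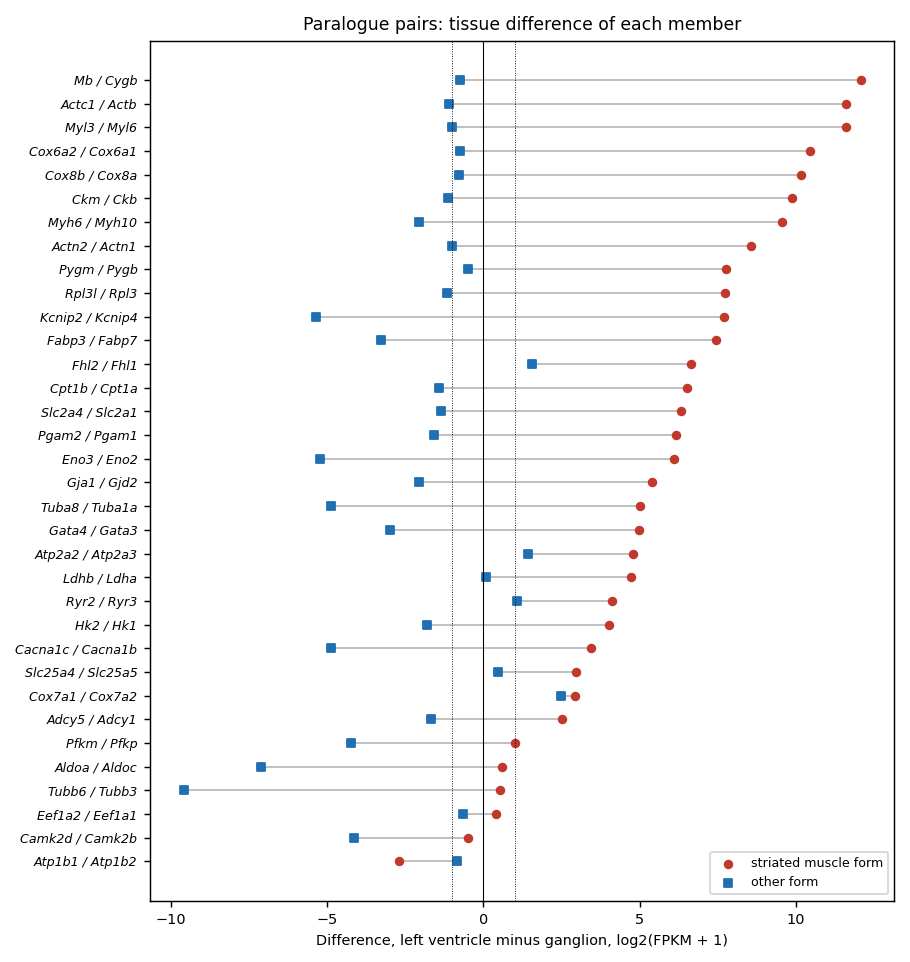
Difference between WKY left ventricle and ganglion on the log2(FPKM + 1) scale (n = 4 libraries each) for both members of 34 of the 36 paralogue pairs, the striated muscle form as a red circle and the other form as a blue square; dotted lines mark a difference of 1 in either direction. Red circles lie to the right of the dotted line in 29 of the pairs drawn and blue squares to the left of it in 21.

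Noradrenaline synthesis marked the ganglion. Of 8 tested genes, 6 were higher there (background 24.6%) and 0 in the ventricle, with a median of -3.97. Tyrosine hydroxylase, Th, which makes the rate-limiting step, had 693, 676, 693 and 719 FPKM in the ganglion and 0.39, 0.4, 0.13 and 0.39 in the ventricle. No ventricle library reached 1, and the difference was -9.04 ± 0.07 (adjusted p = 3.76e-14). Dopamine beta-hydroxylase, Dbh, which makes noradrenaline from dopamine, was the higher of the pair, at 1894, 1999, 2088 and 1892 against 1.65, 1.19, 1.51 and 2.1 FPKM, a difference of -9.57 ± 0.09. Ddc, the decarboxylase between them, was less exclusive, at 304 ± 5.57 against 11.5 ± 1.73. The enzymes of the cofactor tetrahydrobiopterin were split. Gch1, its first enzyme, differed by -3.53 ± 0.05 and Pcbd1, a recycling enzyme, by -4.42 ± 0.07, while Pts and Spr did not reach 2-fold. Pnmt, which turns noradrenaline into adrenaline, did not pass the filter, with at most 0.24 FPKM in a ganglion library and 0.98 in a ventricle library.

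Storage and reuptake followed synthesis. Of 11 tested members, 7 (63.6%) were higher in the ganglion and 2 (18.2%) in the ventricle, against 24.6% and 19.8% of all genes tested. The share higher in the ventricle was thus near the background. Of the 11, 3 passed the filter through the ganglion alone. The vesicular transporter Slc18a2 had 449, 446, 418 and 414 FPKM in the ganglion and 2.12, 1.72, 1.59 and 1.43 in the ventricle, and the noradrenaline transporter Slc6a2 1074, 1185, 1223 and 1004 and 0.62, 0.64, 0.5 and 0.78. Neither gene overlapped between tissues, and the differences were -7.32 ± 0.08 and -9.42 ± 0.07. Cyb561, the electron carrier of the dense-core vesicle, differed by -8.16 ± 0.08, and Slc29a4, a monoamine transporter of the plasma membrane, by -6.48 ± 0.06. Monoamine oxidase A, Maoa, was high in both tissues, at 95.1, 193, 148 and 165 FPKM in the ventricle and 403, 414, 407 and 375 in the ganglion. The members higher in the ventricle were Slc22a3, the transporter for uptake into cells other than neurons, with 5.39 ± 0.69 FPKM against 0.652 ± 0.113, and the aldehyde dehydrogenase Aldh2, with 299 ± 28.96 against 67.8 ± 3.02.

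Several of these genes are known targets of the cyclic AMP response element (CRE), searched here as TGACGTCA, which reads the same on both strands. It was found in 2.99% of the windows of genes higher in the ganglion, 1.78% of those higher in the ventricle and 2.87% of all tested genes with a window. The share of the genes higher in the ganglion was thus near that of all genes. Of 15 granin and neuropeptide genes with a window, 3 (20%) held the element. Listed genes higher in the ventricle, such as Acadm, held it too and are not shown. The 4 windows below, from RefSeq on build GRCr8, come from genes of the noradrenergic and secretory lists, with the element in capitals. They lie at chr1:207508240-207508327 (minus strand), chr1:268399929-268400016 (plus), chr9:88256942-88257029 (minus) and chr12:25277063-25277150 (minus). The element begins 69, 52, 123 and 90 bases before the start.
Th: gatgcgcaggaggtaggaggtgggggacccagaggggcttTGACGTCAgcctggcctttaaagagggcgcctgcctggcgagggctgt
Slc18a2: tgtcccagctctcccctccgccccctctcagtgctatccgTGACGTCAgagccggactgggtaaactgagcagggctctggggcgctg
Scg2: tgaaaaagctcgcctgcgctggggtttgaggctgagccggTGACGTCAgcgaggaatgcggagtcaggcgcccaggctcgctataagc
Vgf: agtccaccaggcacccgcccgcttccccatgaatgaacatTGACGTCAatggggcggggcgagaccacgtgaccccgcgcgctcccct

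Of 18 tested members of the list for regulators of sympathetic neurons, which also holds the stathmin Stmn2, 15 were higher in the ganglion and 2 in the ventricle, and 10 never reached an FPKM of 1 in a ventricle library. Phox2a, a homeodomain factor that specifies noradrenergic neurons, had 111, 130.1, 118 and 109.6 FPKM in the ganglion. The highest ventricle value was 0.38. Gata3, which keeps the noradrenergic programme on, was at 14.04 ± 1.13 FPKM against 0.907 ± 0.121. Isl1 was at 43.6 ± 2.61 FPKM and was listed at 0 in 3 ventricle libraries. Ebf3 and Prox1 were the members higher in the ventricle, by 2.13 ± 0.11 and 1.16 ± 0.10.

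Peptides and the proteins of dense-core vesicles were higher in the ganglion in 16 of 19 tested members and in the ventricle in 1. Of the members tested, 13 passed the filter through the ganglion alone. Neuropeptide Y, Npy, the cotransmitter of noradrenaline, had 2105, 2094, 2216 and 2163 FPKM in the ganglion and 6.14, 13.5, 5.43 and 34.3 in the ventricle. Ventricle library 4 was the highest of its tissue and library 3 the lowest, and all 4 lay far below the ganglion (difference -7.44 ± 0.51). Secretogranin II, Scg2, differed by -8.52 ± 0.05, Scg5 by -7.06 ± 0.08, chromogranin B, Chgb, by -6.16 ± 0.07 and chromogranin A, Chga, by -4.68 ± 0.06. Vgf, a neuropeptide precursor, had 15.7, 21.1, 19.9 and 16.3 FPKM in the ganglion and was listed at 0 in all ventricle libraries. Pam, which amidates peptides and is abundant in the heart, ran the other way, with 362, 443, 389 and 425 FPKM in the ventricle and 167, 153, 150.4 and 162 in the ganglion. Proenkephalin, Penk, was detected on both sides, at 78.7, 81.7, 94.8 and 76.7 FPKM in the ventricle and 255, 365, 310.0 and 262 in the ganglion, and the difference was -1.82 ± 0.12.

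The release machinery of the synapse was higher in the ganglion in 35 of 38 genes, with a median of -4.56, and 17 of the 38 passed the filter through the ganglion alone. The fusion protein Snap25 had 495, 493, 505 and 522 FPKM there and 0.12, 0.24, 0.04 and 0.27 in the ventricle. The calcium sensor Syt1 was at 646 ± 27.96 FPKM against 0.27 ± 0.133, synaptophysin, Syp, at 575 ± 13.7 against 0.892 ± 0.197 and the syntaxin Stx1a at 60.1 ± 1.89 against 1.39 ± 0.146. All tissue values of these genes were apart. The synuclein Sncb differed by -6.64 ± 0.05, and Sncg, the most abundant member of the list, had 1447, 1481, 1588 and 1508 FPKM in the ganglion against 5.3, 3.75, 4.41 and 8.51 in the ventricle.

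All 33 genes of the neuronal cytoskeleton and growth were higher in the ganglion, with the lowest median of the 34 lists, -6.49. Of them, 15 passed the filter through the ganglion alone, and both the count and the median draw on these. The list took 4.06% to 4.37% of the FPKM sum of a ganglion library and 0.0433% to 0.0516% of a ventricle library. Tubb3, the neuronal tubulin, had 2199, 2314, 2307 and 2209 FPKM in the ganglion and 2.61, 1.36, 1.6 and 2.45 in the ventricle, and its difference of -9.58 ± 0.13 was the largest in this direction among the 13636 genes tested. Uchl1, a neuronal ubiquitin hydrolase, stood at 2430.4 ± 59.5 FPKM against 2.77 ± 0.404. Tuba1a was at 3002 ± 91.4 against 103 ± 12.6. The neurofilaments Nefl and Nefm differed by -9.28 ± 0.09 and -8.30 ± 0.09, and peripherin, Prph, the intermediate filament of peripheral neurons, had 1893, 1883, 2041 and 1959 FPKM against 6.93, 5.3, 5.57 and 6.17. The growth cone protein Gap43 and the stathmins Stmn2 and Stmn3 differed by -8.56 ± 0.06, -9.52 ± 0.09 and -8.49 ± 0.05. Thy1, placed on the fibroblast list but known also as a surface protein of neurons, had 1655, 1831, 1849 and 1869 FPKM in the ganglion and 3.11, 2.36, 3.13 and 2.75 in the ventricle. Sult4a1, a sulfotransferase relative of neurons on no list, had 319.9 ± 6.13 against 0.12 ± 0.0616.

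Of 28 tested neuronal ion channel genes, 22 were higher in the ganglion and 0 in the ventricle, but 18 passed the filter through the ganglion alone. The sodium channel Scn3a was at 8.85 ± 0.823 FPKM against 0.887 ± 0.196, the potassium channel Kcnc4 at 62.6 ± 2.67 against 0.242 ± 0.0826 and the calcium channel subunit Cacnb3 at 96.6 ± 1.2 against 2.1 ± 0.236. Receptors for the input of the ganglion went with them, and 10 of 11 tested members of that list were higher in the ganglion. Of these 11, 9 passed the filter through the ganglion alone, so the count says little. Chrna3 and Chrnb4, which form the nicotinic receptor of autonomic ganglia, had 389, 409, 466 and 415 and 108, 116, 120.1 and 109 FPKM there. The ventricle held 0.25, 0.11, 0.35 and 0.25 FPKM of Chrna3, and Chrnb4 was listed at 0 in libraries 1 and 3. The serotonin receptor channel Htr3a differed by -7.82 ± 0.08. The choline transporter Slc5a7 reached 29.97, 36.3, 39.2 and 31.5 FPKM in the ganglion, while Chat, which makes acetylcholine, was at most 0.17 in any library. The muscarinic receptor Chrm2, the target of the vagus nerve in the heart, had 16.8, 15.7, 16.4 and 18.3 FPKM in the ventricle and 21.3, 25.98, 25.9 and 16.6 in the ganglion. The ranges overlapped, and the difference of -0.38 ± 0.13 was below 2-fold.

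Sympathetic neurons depend on survival factors from the organs they reach, so ligands and receptors were set side by side. Of 20 tested ligand genes, 11 (55%) were higher in the ventricle and 2 (10%) in the ganglion. Of 27 receptor genes, 5 (18.5%) were higher in the ventricle and 14 (51.9%) in the ganglion. The shares over all genes tested were 19.8% and 24.6%, so the share of receptors higher in the ventricle was near the background. Through the ventricle alone passed 4 of the ligands, and through the ganglion alone 5 of the receptors. The neurotrophin receptor Ngfr was at 485 ± 40.5 FPKM in the ganglion against 1.13 ± 0.194. Bdnf, at 8.79, 10.8, 10.2 and 8.28 FPKM in the ventricle, was at most 0.03 in the ganglion, Ntf3 differed by 1.72 ± 0.07 and neurturin, Nrtn, had 6.06, 6.32, 6.96 and 4.36 FPKM against 0.26, 0.34, 0.08 and 0.19. The neurturin receptors Ret and Gfra2 were on the ganglion side, at 75.6 ± 10.8 and 60.3 ± 4.33 FPKM against 1.92 ± 0.149 and 3.65 ± 1.67. Gdnf and the repellent Sema3a did not pass the filter, Sema3a with 0.81, 1.02, 0.6 and 0.78 FPKM in the ventricle. The ligands higher in the ganglion were endothelin 3, Edn3, with 62.6 ± 5.76 FPKM and listed at 0 in all ventricle libraries, and Slit3 (-2.09 ± 0.08). Receptors higher in the ventricle were Nrp1, Plxna2, Plxnd1, Epha4 and Ednrb, by 1.01 (Ednrb) to 2.41 (Nrp1).

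Receptors for the transmitters of sympathetic nerves were found on both sides. Of 24 tested genes of receptors and their signalling, 7 were higher in the ventricle (29.2% against 19.8% of all genes tested) and 9 in the ganglion (37.5% against 24.6%), shares not far from those of all genes. Of these genes, 4 passed the filter through the ventricle alone and 4 through the ganglion alone. Adrb1, the main beta receptor of the heart, had 4.76, 4.22, 5.07 and 5.75 FPKM in the ventricle and 0.08, 0.2, 0.16 and 0.44 in the ganglion, a difference of 2.29 ± 0.11. The alpha-1 receptors Adra1a, Adra1b and Adra1d were also on the ventricle side, with 7.16 ± 0.476, 25.4 ± 1.53 and 3.1 ± 0.936 FPKM and no ganglion library above 0.18. Adra2a, the inhibitory autoreceptor of sympathetic neurons, was at 0.32, 0.25, 0.24 and 0.08 FPKM in the ventricle and at 29.1, 33.4, 30.1 and 29.6 in the ganglion (-4.69 ± 0.08). Npy1r was low on both sides, at 2.32 ± 0.535 FPKM in the ganglion and 0.432 ± 0.0714 in the ventricle. Downstream of the receptors, the adenylyl cyclases Adcy5 and Adcy6 and the phosphodiesterase Pde3a were higher in the ventricle, by 2.53 ± 0.07, 1.75 ± 0.09 and 1.66 ± 0.05. Gnas, the stimulatory G protein, was among the highest genes of the ganglion, at 2156, 2319, 2164 and 2162 FPKM against 405, 401, 393 and 391, and Rgs4, which shortens G protein signals, differed by -3.99 ± 0.05.

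**Figure D3:**
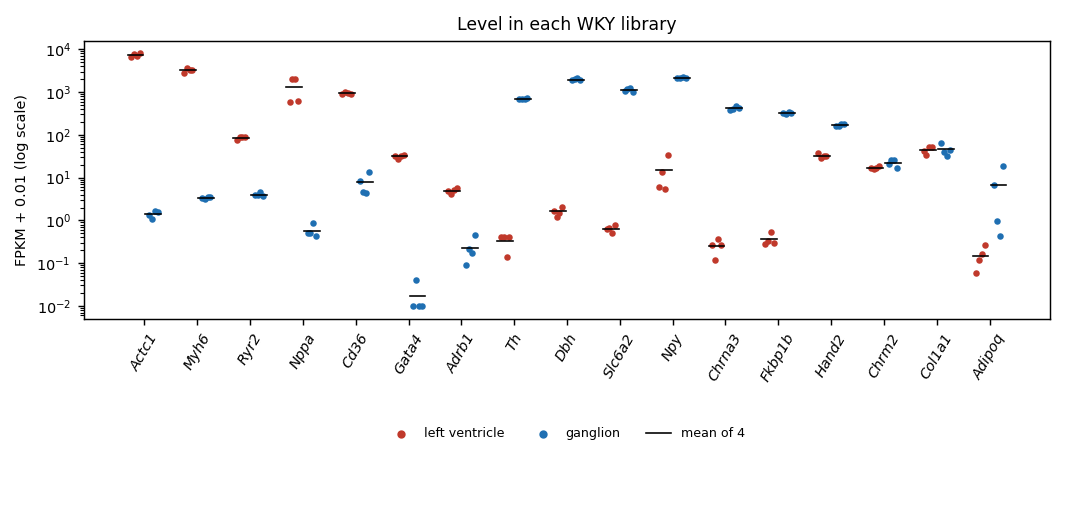
FPKM + 0.01 on a log axis in each WKY left ventricle (red) and WKY ganglion (blue) library for 17 genes of the lists, with the mean of 4 as a line. Muscle genes lie higher in the ventricle, noradrenergic and neuronal genes higher in the ganglion, and the values of Chrm2 and Col1a1 overlap.

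Glial genes accompanied the neurons. Of 29 tested markers of satellite glia and Schwann cells, 24 were higher in the ganglion and 1, the endothelin receptor Ednrb, in the ventricle, with a median of -3.20, and 8 passed the filter through the ganglion alone. The myelin genes Mbp, with 142, 252, 139.6 and 156 FPKM in the ganglion, and Prx, with 16.2, 55.6, 19.7 and 18.9, were highest in ganglion library 2, which stood well above the other 3. Markers of satellite glia were not highest there. Fabp7 had 10.5, 8.17, 6.09 and 10.8 FPKM in the ganglion and was listed at 0 in all ventricle libraries, and the potassium channel Kcnj10 had 14.4, 13.1, 12.2 and 12.3. Apoe, which glia and macrophages make, was the most abundant of the list, at 1953 ± 153 FPKM against 171 ± 14.97. Sox10, the regulator of the glial lineage, differed by -3.11 ± 0.22 and S100b by -5.49 ± 0.20.

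Vessel and matrix genes leaned to the ventricle. In whole tissue, fewer cells of a type and less RNA per cell cannot be told apart. Endothelial markers were higher in the ventricle in 19 of 21 tested genes (background 19.8%), smooth muscle and pericyte markers in 12 of 16 and fibroblast and matrix genes in 18 of 30. Each of these lists had 1 member higher in the ganglion, which was Plvap, Mcam and Thy1. Pecam1, an endothelial adhesion protein, had 158, 165, 134 and 126 FPKM in the ventricle and 12.7, 10.97, 7.39 and 15.3 in the ganglion, and the receptor of vascular endothelial growth factor, Kdr, differed by 4.50 ± 0.15. Plvap, which marks fenestrated vessels, had 11.2, 11.7, 3.86 and 11.4 FPKM in the ganglion, where library 3 was low, and 1.13, 2.23, 2.09 and 2.63 in the ventricle (difference -1.73 ± 0.33). Cldn5, the tight junction protein, was below 2-fold (0.91 ± 0.11). The pericyte gene Rgs5 was at 216 ± 48.8 FPKM against 7.96 ± 2.46, and Mcam at 457 ± 5.65 in the ganglion against 49.7 ± 3.81. The fibroblast receptor Pdgfra and the epicardial factor Tcf21 differed by 3.16 ± 0.20 and 3.71 ± 0.12. Collagen I did not separate the tissues. Col1a1 had 41.4, 33.9, 52.1 and 51.5 FPKM in the ventricle and 63.7, 40.5, 32.3 and 45.4 in the ganglion, and its difference of -0.0012 ± 0.21 changed sign with the scaling.

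Markers of further cell types set what else the tissues held. Macrophage markers were detected in both. Of 18, 7 (38.9% against 19.8% of all genes tested) were higher in the ventricle and 0 in the ganglion, with Lyve1 and Cd163 at 1.75 ± 0.17 and 1.67 ± 0.15. C1qa had 38.5, 28.2, 42.1 and 34.5 FPKM in the ventricle and 29.7, 20.2, 22.5 and 17.3 in the ganglion, which overlap. Of 19 lymphocyte markers in the table only 2 passed the filter, and Cd79a and Ms4a1 of B cells were listed at 0 in all ganglion libraries. Adipocyte markers took 0.205% to 0.221% of the FPKM sum in the ventricle and 0.0029% to 0.0279% in the ganglion, where they varied between libraries. Fabp4, which capillary endothelium also makes, had 33.5, 13.4, 5.53 and 70.9 FPKM in the ganglion and 1028 ± 56.5 in the ventricle. Adipoq, the hormone of fat cells, had 6.61, 0.96, 0.41 and 18.8 in the ganglion and at most 0.25 in the ventricle. Plin1 had 1.87, 0.08, 0.03 and 5.24, Cidec 2.05, 0.87, 0.71 and 6.35 and Retn 2.12, 0.48, 0 and 7.56. Ganglion libraries 1 and 4 were the higher ones for each of these, as they were for Cd36 and Lpl above. The split was not particular to fat cell genes. The endothelial list summed to 368, 302, 239 and 407 FPKM in ganglion libraries 1 to 4. The smooth muscle and fibroblast lists were also higher in libraries 1 and 4. The macrophage list was not, at 433, 307, 371 and 262. The part of fat cells or of any other cell type in the values of these genes was not tested. None of Adipoq, Plin1, Cidec and Retn passed the filter.

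**Figure D4:**
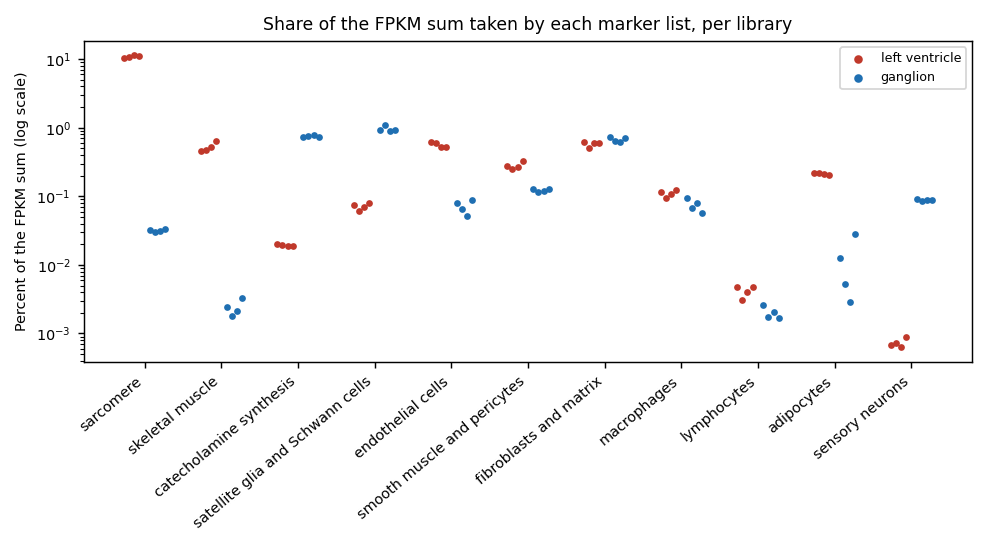
Percent of the FPKM sum taken by each of 11 marker lists (log axis) in each WKY left ventricle (red) and WKY ganglion (blue) library. The ganglion libraries 1 and 4 are higher than 2 and 3 for the adipocyte list and, by less, for the endothelial, smooth muscle and fibroblast lists. The macrophage and fibroblast lists lie within the same decade in both tissues. Thy1, known also from neurons, makes up much of the fibroblast share in the ganglion, and Avil most of the sensory neuron share.

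Fast skeletal muscle myosins were near 0 in both tissues. The genes Myh2 and Myh4 were at most 0.17 FPKM in any library, and the 5 members higher in the ventricle included Ckm and Acta1, which heart muscle also makes. Of the atrial markers, Nppa and Pam, whose values are given with their other lists, had the highest ventricle levels. Myl7, the atrial light chain, had 0.84, 3.06, 3.69 and 1.11 FPKM and Sln (sarcolipin) 0.59, 7.12, 5.22 and 4.42, both lowest in library 1. Libraries 2 and 3, the ones high in Nppa, were also the highest for these genes, and the part of atrial tissue in the Nppa values was not tested. Of the 9 atrial markers tested, 6 (66.7%) were higher in the ventricle and 2 (22.2%) in the ganglion (Nr2f1 and Dkk3). The shares over all genes tested were 19.8% and 24.6%, so the share higher in the ganglion was near the background. Of the 9, 4 passed the filter through the ventricle alone, which fixed their direction. Sensory neuron markers were largely missing from the ganglion, with Pou4f1 listed at 0 in all 4 libraries and Scn10a at most 0.1. Of 5 tested, 3 (60% against 24.6% of all genes tested) were higher in the ganglion. As 4 passed the filter through the ganglion alone, this count says little. The actin-binding protein Avil was at 402, 380.1, 394 and 393 FPKM there against 1.22, 1.65, 1.09 and 1.43 in the ventricle, and Drgx and Ntrk3 differed by -2.18 ± 0.10 and -1.46 ± 0.15. Gland markers were low. Tg and Tshr of the thyroid were at most 0.4, and Cyp11a1, the enzyme of the first step of steroid synthesis, was the 1 member higher in the ventricle, at 8.98 ± 1.9 FPKM against 1.47 ± 0.0597.

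Regulators of position and of RNA also differed. Of 6 Hox genes that passed the filter, 4 were higher in the ganglion and 0 in the ventricle, and 4 passed through the ganglion alone, so the direction of the count was fixed by the filter. Hoxc4 had 22.3, 23.3, 24.3 and 24.5 FPKM in the ganglion and 0.11, 0, 0.04 and 0.04 in the ventricle, and Hoxd8 and Hoxd4 differed by -2.43 ± 0.10 and -2.04 ± 0.09. Hoxb3 overlapped between the tissues (-0.31 ± 0.18). Among 27 tested RNA-binding and splicing regulators, 14 (51.9%) were higher in the ganglion and 7 (25.9%) in the ventricle. The shares over all genes tested were 24.6% and 19.8%. Of the 27, 10 never reached an FPKM of 1 in a ventricle library, so the filter fixed their direction. The neuronal Elavl4 had 35.01, 37.2, 34.4 and 34.4 FPKM in the ganglion and was listed at 0 in 3 ventricle libraries, Elavl2 and Celf6 differed by -6.65 ± 0.06 and -6.98 ± 0.06, and Nova1 by -1.01 ± 0.09. Rbm20, which sets the splicing of titin, had 22.5, 24.5, 25.7 and 22.8 FPKM in the ventricle and 1.38, 1.45, 1.59 and 1.43 in the ganglion. Rbm24 and Rbm38 were on the same side, by 4.99 ± 0.07 and 4.48 ± 0.07. Cytoplasmic ribosomal proteins shifted together by little, with a median of 0.57. Of 41 tested, 5 (12.2%) were higher in the ventricle, 2 (4.88%) in the ganglion and 32 were called below 2-fold. Both shares were below those of all genes tested. Under equal sums or quantile normalization 1 member was higher in the ventricle, so no direction is given for this list. Over all 34 lists, 288 of 660 tested genes were higher in the ventricle and 232 in the ganglion, against 19.8% and 24.6% of all genes. The lists were chosen with earlier results of these data known, so these counts are descriptions.

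**Figure D5:**
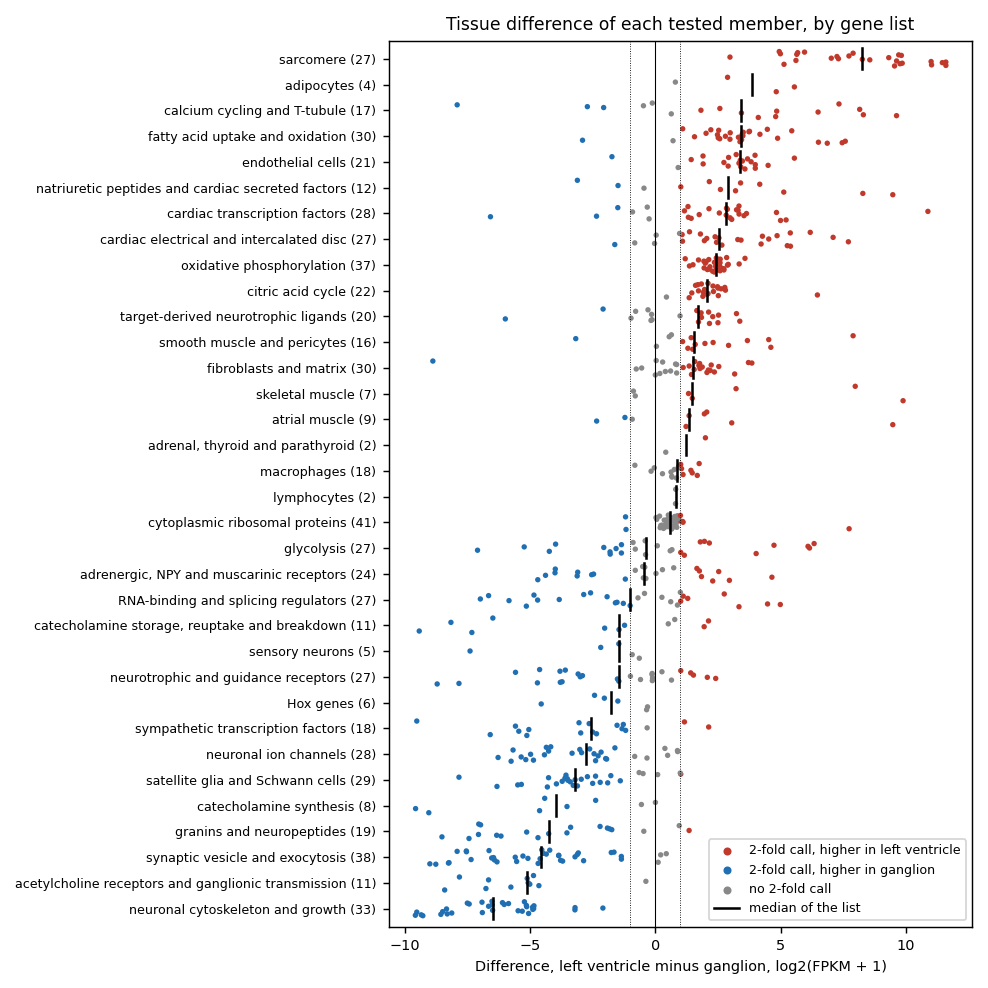
Difference between WKY left ventricle and ganglion on the log2(FPKM + 1) scale (n = 4 libraries each) for every tested member of 34 gene lists, ordered by their median (black bar), with the number of tested members in parentheses; dotted lines mark a difference of 1. The sarcomere list has the highest median, 8.26, and the neuronal cytoskeleton list the lowest, -6.49.

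The 8 libraries of left ventricle and ganglion from SHR rats, which the WKY comparison does not use, were fitted separately on the same genes. In them 2517 genes (18.5%) were higher in the ventricle and 3381 (24.8%) in the ganglion. Of the genes higher in the WKY ventricle, 2283 were also higher in the SHR ventricle, which is 84.4% of the WKY and 90.7% of the SHR genes. For the ganglion 3090 genes were shared, 92.3% of the WKY and 91.4% of the SHR genes. The same sarcomere, respiratory chain and cytoskeleton counts were found in SHR, with 27 of 27, 37 of 37 and 33 of 33 on the same side. The opposite 2-fold call was made for 0 of the genes higher in the WKY ventricle and for 2 of those higher in the WKY ganglion, Penk and Spp1. Penk was at 214, 213, 261 and 119 FPKM in the SHR ventricle and 52.8, 38.7, 29.2 and 37.2 in the SHR ganglion, so the ventricle led in SHR and the ganglion in WKY, with a difference of 2.30 in SHR. Spp1, osteopontin, a matrix protein of injured heart and of Schwann cells, had 0.51, 1.23, 2.86 and 0.36 FPKM in the WKY ventricle, 4.42, 14.5, 3.84 and 5.26 in the WKY ganglion, 21.9, 14.5, 32.97 and 50.3 in the SHR ventricle and 12.8, 3.63, 8.72 and 4.2 in the SHR ganglion. Hcn4 had 11.1, 3.83, 5.27 and 2.78 FPKM in the SHR ventricle and 4.39, 4.32, 4.57 and 5.41 in the SHR ganglion, a difference of 0.11. Whether these tissue differences themselves differed between the strains was not tested.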

How the data were processed

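The values are FPKM per gene and library, which the authors deposited in a table of 22864 genes with NCBI gene identifiers, per the file headers. Named in the submitters' processing notes, without role or order, are the build Rnor_6.0 and the tools DESeq2 1.4.5, RSEM 1.3.1 and Bowtie2. Trizol extraction was followed by KAPA RNA HyperPrep libraries and a BGISEQ-500 run, per the labels' protocols. The annotation, the strand setting and the number of reads were not given in the sources used here. The authors' deposited log2 ratios and q-values compare strains within a tissue and were not used. Values were blank in every library for 2358 genes, which left 20506, and 27 symbols turned into dates were restored by identifier. Groups and replicate numbers come from the sample titles.

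Genes at an FPKM of 1 or above in 4 or more of the 8 libraries were tested on log2(FPKM + 1) by limma 3.58.1 (R 4.3.3) with trend and robust moderation, 2-sided, Benjamini-Hochberg adjusted over 13636 genes at 0.05. On simulated data drawn on these 13636 genes, 100 genes were changed at each size. By adjusted p and direction, without the rule of a difference of 1, 92% of changes of 1 and 99% of changes of 2 log2 units were called. Of the simulated calls, 7.28% were false. Only 200 genes were changed there, whereas 86.9% of the genes passed the adjusted p in the data, so the false share does not carry over. Promoter windows came from RefSeq on GRCr8, which is not the build of the deposited values, and were matched by gene identifier for 10715 of the genes tested.

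The 34 gene lists (773 of 779 genes matched), the 36 pairs, the motifs and the comparison itself were chosen with earlier results of these data known, so list counts are descriptions. Named genes are fixed members of each list, the pairs, the 10 largest differences and 5 highest levels in each tissue, the 3 members of a list with the smallest adjusted p and members called against their list; some of these genes are not reported here. Genes named after their values were seen are Penk, Spp1, Bdnf, Adipoq, Retn, Cidec, Plin1, Npy1r, Sult4a1, Nefm, Stmn3, Avil, Myl7, Sln, Mbp, Prx, Lpl, Prph, Slc5a7, Chat, Pnmt, Vgf, Sncg, Lck, Myot, Pts and Spr. Alternatives were other pseudocounts, filters, scalings, moderation, limma's treat, a fit on all 24 libraries, a replicate block and leaving out each library.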

Additional observations from a re-analysis of the deposited data

Results flagged for a closer look

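For each printed gene and list, the highest and the lowest of the 4 libraries of a tissue were compared with the spread of the group. Of 516 groups of 4 examined, 33 held a library with a large gap to its neighbours, and chance flags about 1 in 20 such groups. Ganglion library 2 was high for genes of myelinating Schwann cells, with Mbp at 252 FPKM against 140.0 to 156 in the other 3 and Prx at 55.6 against 16.2 to 19.7. Spp1 was also highest there, at 14.5 against 3.84 to 5.26, as were Gnas at 2319 and Cd24 at 677. Pln was lowest in the same library, at 0.65 FPKM. The other ganglion flags were Plvap at 3.86 in library 3 against 11.2 to 11.7, Nppa at 0.84 and Slc29a4 at 96.9 in library 3, and in library 1 Cox5a at 208, Idh3a at 101, Uchl1 at 2342 and Fgf16 at 0.19.

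In the left ventricle, Ryr2 was lowest in library 1 at 75.2 FPKM against 87.7 to 89.4, and Tbx5 at 5.89 against 7.62 to 7.94. Library 1 also had the highest value of Ret, 2.14, the lowest share of granins and neuropeptides, 0.113% of the FPKM sum, and the highest share of neuronal cytoskeleton genes, 0.0516%. Cox6a2 was highest in library 3 at 2421 against 1815 to 1917, Popdc2 in library 4 at 169 against 134 to 137, Aldoc in library 4 at 2.87 and Cyb561 in library 4 at 3.31. Th was lowest in library 3 at 0.13. Genes near 0 gave the remaining flags. These were, in the ganglion, Gata4 at 0.03, Nkx2-5 at 0.04, Sema3a at 0.09, Myh4 at 0.13 and Myl7 at 0.1 FPKM, and in the ventricle Scn10a at 0.01, Elavl4 at 0.09, Hand1 at 0.14, Isl1 at 0.08 and Drgx at 0.03.

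Opposite 2-fold calls were made in the strains for 2 genes, with every library of one tissue above every library of the other in each strain. Penk differed by -1.82 in WKY and 2.30 in SHR, and Spp1 by -1.79 in WKY and 1.89 in SHR. The difference between the strains was not tested.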

How the results depend on the processing

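The count of genes higher in the left ventricle was 2705 and ran from 2650 to 2771 when 1 library was left out, and the count higher in the ganglion was 3349 and ran from 3313 to 3380. The list members higher in the ventricle (288) ran from 283 to 291, those higher in the ganglion (232) from 231 to 234, and the pairs with opposite calls (19) from 17 to 20. A pseudocount of 5 lowered the ventricle count to 1738, while 0.1 gave 3115 and 3732. Requiring an FPKM of at least 1 in all 8 libraries, an alternative chosen after seeing the data, left 10730 genes, with 1900 higher in the ventricle and 2034 in the ganglion; list members higher in the ganglion fell to 96 and opposite pairs to 7, and RNA-binding members higher in the ganglion to 3. That filter removes by construction every gene that is off in either tissue. Median-of-ratios scaling gave 2872 and 3200, quantile normalization 3204 and 2894, and equal sums 2452 and 4183; limma's treat gave 2160 and 2849. The ribosomal list kept 1 member higher in the ventricle under quantile normalization and 1 with equal sums. Ldha became -0.50 under quantile normalization and -0.17 with equal sums, and Aldoa -0.050 under quantile normalization. Col1a1 became 0.068 under median-of-ratios scaling and 0.16 under quantile normalization, and ran from -0.15 to 0.17 when 1 library was left out. Except for the scalings, the cause of these moves was not tested. With the replicate number as a block the counts were 2703 and 3348. Same-numbered libraries of the tissues had correlations of their deviations from the tissue means of 0.13, 0.08, 0.02 and -0.05, so the numbers were not taken to pair the samples. The unknown number of reads limits what low values can show, and genes below an FPKM of 1 were read as low rather than absent.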

Other observations

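Some genes with large differences stood on no list and were named by the rule or after their values were seen. Ckmt2, the mitochondrial creatine kinase of striated muscle, had 1714, 1969.8, 1887 and 1818 FPKM in the left ventricle and 0.32, 0.32, 0.5 and 0.18 in the ganglion, a difference of 10.44 ± 0.07 (SE). Hspb7, a small heat shock protein of the heart, stood at 787 ± 79.6 against 0.87 ± 0.0548 FPKM, and Smpx, a small protein of striated muscle, at 372 ± 15.98 against 0.2 ± 0.144. Cd24, a surface protein of many cell types, had 654, 677, 656 and 652 FPKM in the ganglion and 0.58, 1.24, 0.68 and 1.14 in the ventricle. The highest gene of the ganglion was one the table names LOC100360645, with 3191, 3099, 3193 and 3269 FPKM there and 1357, 1370.4, 1541 and 1316 in the ventricle. Such a locus may share reads with a near-identical copy, so its level is uncertain.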
